A study of Mus musculus with 12 samples.

Results

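Chd8 summits outside mitochondrial DNA, unplaced sequence and the starts of chromosomes were taken from 1 list of Chd8 binding in adult mouse forebrain. A summit is a local peak of read depth within a called interval, and an interval can hold several of unlike depth. Of the 467 summits on build mm9, 296 (63.4%) lay on a placed nuclear chromosome in an interval starting at 4000000 or beyond. The rule left out 13 summits in mitochondrial DNA, 25 in unplaced sequence and 133 near the start of a chromosome, where mouse assemblies place sequence next to the centromere.

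The list came from chromatin immunoprecipitation with sequencing (ChIP-seq), in which DNA bound by a protein is pulled down with an antibody and read. Forebrain of wild-type C57BL/6N mice, labelled P56 and described as adult, was cross-linked and treated with an Abcam antibody to Chd8, and single ends of 50 bp were read. Input DNA without antibody was read alongside. The labels speak of 2 biological replicates and of a merged sample, but every name in the list refers to 1 wild-type sample. Whether the replicates were combined before calling cannot be told. With 1 list there is no replicate check on any value below, and differences are given as descriptions with no test. The series also holds RNA from wild-type and Chd8 heterozygous forebrain (Chd8+/del5), which was not used here because no gene annotation of build mm9 was at hand to tie a gene to a summit.

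Chd8 belongs to the CHD family of remodelling enzymes, which use the energy of ATP to move nucleosomes. In the developing brain it is known for binding at promoters of active genes, and loss of a copy in humans is linked to autism. In mouse ChIP-seq, some loci are known to collect deep reads with many antibodies. Among these are ribosomal RNA genes and satellite repeats, which exist in far more copies in the genome than in an assembly.

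The 296 summits fell in 157 intervals and were spread unevenly. With intervals joined where they lay within 100000 bp of each other, they formed 82 clusters. In 6 of these, with 5 or more summits each, lay 203 summits (68.6%), and 157 of them (53.0% of the 296) lay in a single cluster on chromosome 1. The other 76 clusters held 93 summits in 83 intervals. Of these clusters, 65 had 1 summit, 6 had 2, 4 had 3 and 1 had 4. Every autosome and the X chromosome carried at least 1 of the 93, and chromosome Y carried 0.

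The label given to these summits, outside repeat-rich sequence, does not describe all of them. An interval on chromosome 17 lies where the mouse assembly carries a ribosomal RNA unit, and a cluster on chromosome 2 lies at a satellite-like locus known from other mouse ChIP-seq. Both identities are background knowledge and were not read from sequence, since no mm9 genome was used here. The other loci, the high isolated summits among them, were not compared with any list of repeats or of known high-signal loci. Whether they too are loci of this kind was not tested. The RefSeq gene table of build GRCm38.p6 names Rn18s-rs5, a pseudogene of ribosomal RNA, on chromosome 17, but no coordinate was carried between builds. The summits are therefore described by position and value only, and no sequence is printed.

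Each summit has the authors' fold, a −log10 p and a −log10 q. The fold ran from 3.14 to 36.71 over the 296 summits, with a median of 4.50 and quartiles of 3.91 and 5.63. Most summits thus lay close to the lower end of the list. The lowest −log10 q was 5.49 and the median 15.2. Among the 171 summits left out, the median fold was 16.82 and the range 3.14 to 42.57. These summits were not alike: the median was 41.72 in mitochondrial DNA and 18.27 near chromosome starts, but 5.35 in unplaced sequence. A fold of at least 10 was reached by 23 of the 296 (7.77%), beside 29.6% of all 467 summits. Outside the chromosome 1 cluster, the share among the 296 was 16.5%. Of the summits left out, 115 (67.3%) reached a fold of at least 10, but only 20% of the unplaced ones did. The rule used position, not fold, but summits of a locus share their reads, so these differences have no test.

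**Figure D1:**
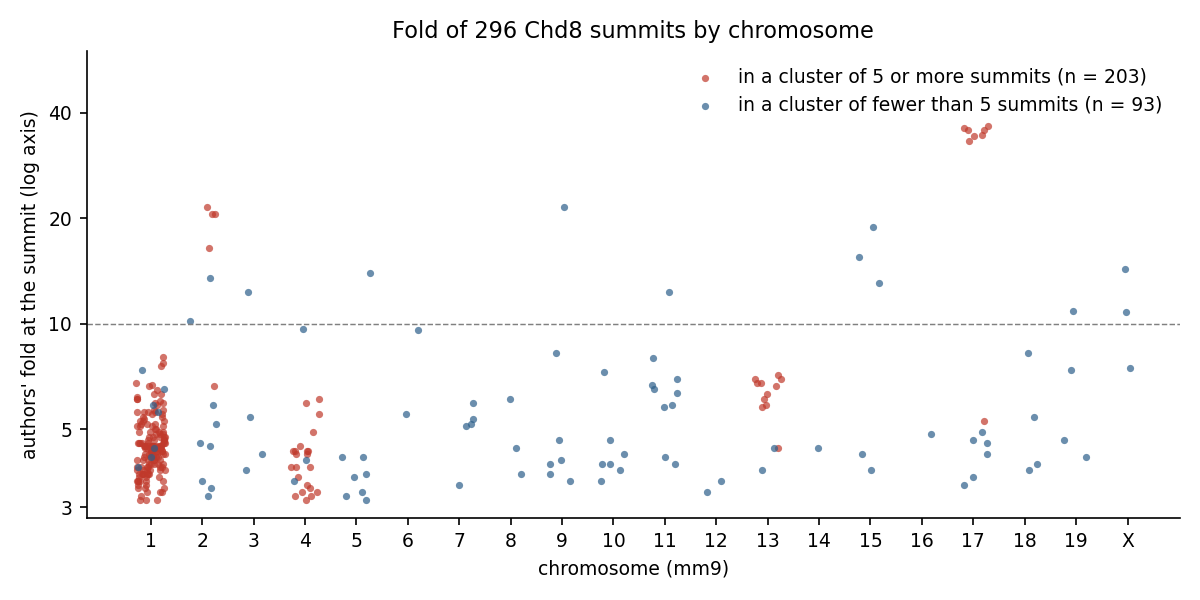
Authors' fold (log axis) of each of the 296 summits by mm9 chromosome. Red points belong to the 6 clusters of 5 or more summits and blue points to the 76 smaller ones, and the dashed line marks a fold of 10. The chromosome 1 cluster stays at or below 8.07, while 7 of the 8 summits on chromosome 17 in red lie above 33.

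The fold and the p of a summit together gave the read depth behind it. The usual formula of the peak caller sets the fold as the depth plus 1 over the background plus 1, and p as the Poisson tail at that depth. A whole depth that returned the deposited −log10 p within 0.01 was found for all 467 summits. The background came out at 10.77 reads in every one, with a spread of 3.1e-05 over the list. The fold of each summit is thus its depth on another scale, in steps of 0.085 per read, and the 296 summits took only 76 distinct values.

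A background of 10.77 was the value at the ribosomal locus, in mitochondrial DNA and at isolated summits alike. An input level particular to each locus therefore does not show in the deposited folds, although the list was named as called against input. The input library was not analysed here, so whether input reads were also deep at these loci was not tested. Depth at the 296 summits ran from 36 to 431 reads, with a median of 52. In what follows each fold has an exact 95% Poisson interval from its depth, which covers counting error only. It does not allow for a summit being picked as a local peak, or for reads shared by neighbouring summits. Overlap of these intervals is therefore a description, not a test.

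**Figure D2:**
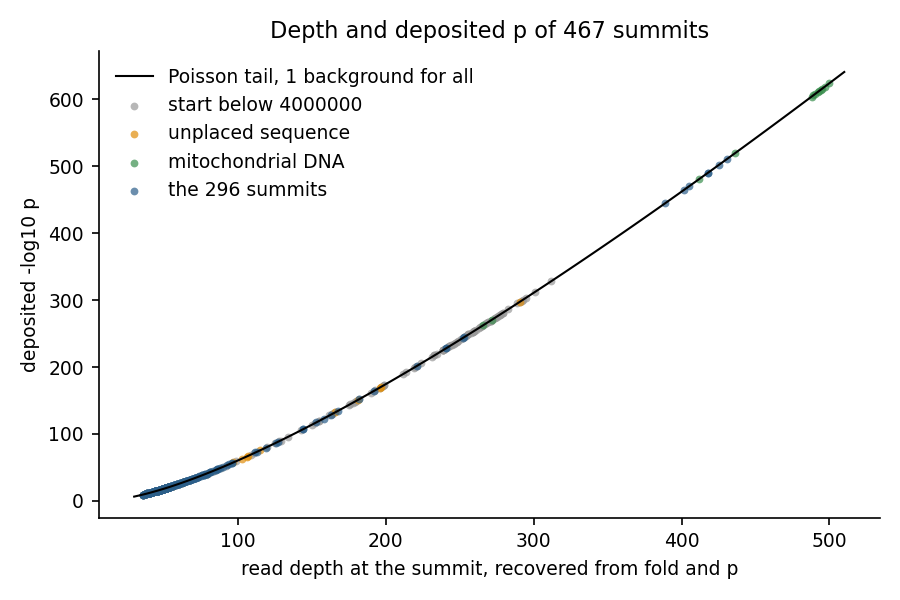
Deposited −log10 p of all 467 summits against the read depth recovered from fold and p, coloured by where the summit lies. The line is the Poisson tail for a single background of 10.77 reads, and all points lie on it, from 36 reads to the 500 of a mitochondrial summit.

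The cluster on chromosome 1 ran from 90108116 to 90207370, a span of 99255 bp. Its 48 intervals covered 80769 bp, or 81.4% of that span, and made up 56.7% of the length of all 157 intervals. Fold within it ran from 3.14 to 8.07 with a median of 4.42 (depth 51) and quartiles of 3.91 and 4.93. None of its 157 summits reached a fold of 10. The locus was thus a long stretch of moderate depth, covered for most of its length.

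Its summits stood a median of 546.5 bp apart. The 47 gaps between intervals had a median of 261 bp, 39 were shorter than 500 bp, and the largest were 2399 and 2199 bp. Intervals were wide, with a median of 1033 bp and up to 7391 bp, the widest of all 157. That interval, from 90170012 to 90177402, held 13 summits and the cluster's highest point, at 90174221, with a depth of 94 and a fold of 8.07 (6.54 to 9.86).

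Fold was higher at the left end than along the rest of the cluster. In the first 10 kb the median fold over 14 summits was 6.12, and intervals covered 98.8% of the window. In the other 9 windows, 8 of 10 kb and a last one of 9255 bp, the median fold lay between 3.82 and 4.55, and cover between 51.4 and 89.0%. Of the 13 summits with a fold of at least 6, 10 lay in the first 20 kb. They include 90116216 with 7.73 (6.23 to 9.48) and 90120553 with 7.56 (6.08 to 9.30).

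Summits close to both edges were as deep as most of the cluster. The first summit lay 460 bp inside the left edge with a fold of 5.95 (4.65 to 7.50), and the last 482 bp inside the right edge with 5.10 (3.90 to 6.55). Chromosome 1 carried only 7 other summits of the 296, in 5 further clusters. The highest of these, on an interval from 26743702 to 26745193, had folds of 7.39, 5.86 and 4.42.

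**Figure D3:**
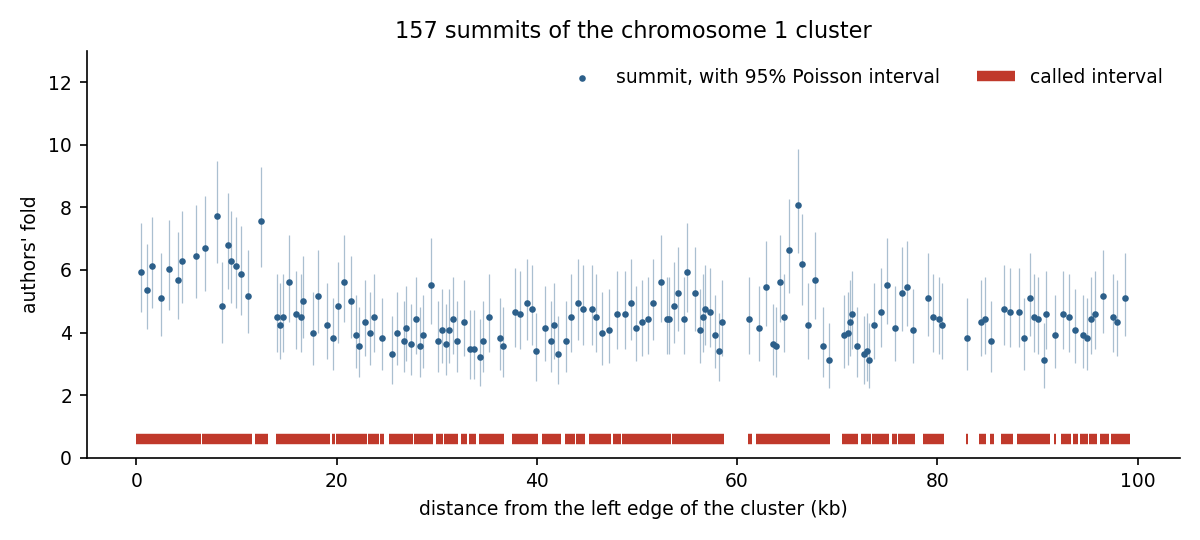
Authors' fold of the 157 summits of the chromosome 1 cluster against distance from its left edge in kb, with 95% Poisson intervals (lines), and the 48 called intervals as red bars. The first 10 kb lies higher, with a median of 6.12, and a second rise to 8.07 stands 66.1 kb from the edge.

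The deepest of the 296 summits lay on chromosome 17 from 39979820 to 39985932, the locus at which the assembly carries a ribosomal RNA unit. Ribosomal RNA genes are transcribed by RNA polymerase I as a long precursor that is cut into the 18S, 5.8S and 28S RNAs. A single interval of 6113 bp held 8 summits. Of these, 7 had depths between 389 and 431, and folds between 33.14 (29.93 to 36.59) and 36.71 (33.33 to 40.33). The Poisson intervals of these 7 overlap, and their differences were not tested.

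The eighth summit of that interval, at 39984068, had a depth of 61 and a fold of 5.27 (4.05 to 6.74). It lay between summits of 425 and 405 reads at 39982923 and 39985436. The list gives depth at summits only, not between them. The 7 high summits were the only ones of the 296 with a depth of 389 or more. The top one, at 39981494, reached 86.2% of the highest depth in the whole list, which was a mitochondrial summit of 500 reads.

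A cluster on chromosome 2 from 98502269 to 98507642, the satellite-like locus, held 5 summits in 4 intervals. Folds in order along the chromosome were 21.58 (19.01 to 24.40), 20.56, 6.63, 16.40 and 20.56, from depths of 253, 241, 77, 192 and 241. As on chromosome 17, a summit of much lower depth stood among high ones. Chromosomes 17 and 2 together account for 11 of the 23 summits with a fold of at least 10 through these 2 loci.

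On chromosome 15, an interval of 1819 bp from 74915814 to 74917632 held 3 summits that rose along it. Folds were 13.09 (11.11 to 15.32), 15.55 (13.38 to 17.97) and 18.86 (16.47 to 21.51), and the first and last do not overlap. This was the only interval of several summits outside the large clusters with a fold of at least 10.

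A cluster on chromosome 13 from 120277465 to 120284312 lay at a lower level. Its 3 intervals covered 93.0% of 6848 bp, with 11 summits at depths of 51 to 83 and a median fold of 6.63. Its lowest summit, at 120278542 with a fold of 4.42 (3.31 to 5.78), stood between summits of 79 and 81 reads. Summits stood a median of 616 bp apart, near the 546.5 bp of the chromosome 1 cluster. This spacing was not particular to these clusters, nor was it shared by all. The median was 532 bp in the chromosome 17 interval and 581.5 bp in the chromosome 15 interval. It was 370 bp in an interval on chromosome 11, 1168 bp in the chromosome 2 cluster, and 1758.5 and 1798 bp in the large clusters of chromosome 4. A shorter stretch of closely spaced summits lay on chromosome 11 from 88829134 to 88830785, with folds of 6.97, 6.54, 7.99 and 6.71. All 4 of its Poisson intervals overlap.

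**Figure D4:**
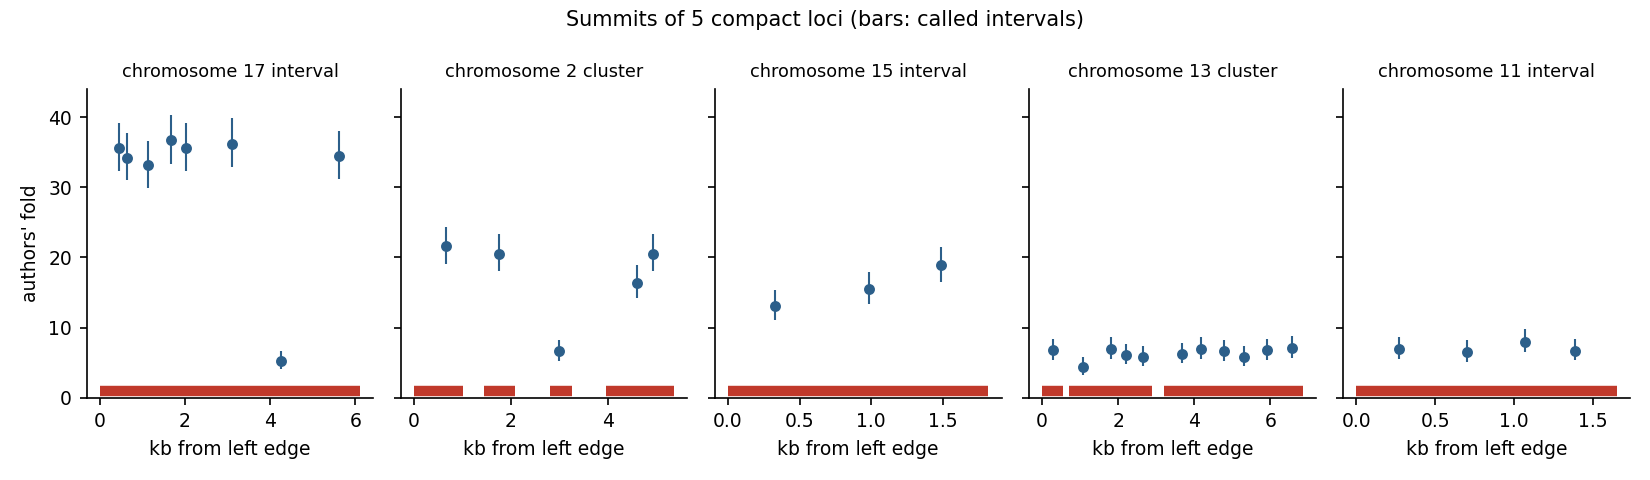
Authors' fold of the summits at 5 compact loci on chromosomes 17, 2, 15, 13 and 11 against distance from the left edge in kb, on a shared axis, with 95% Poisson intervals; red bars are called intervals. Chromosomes 17 and 2 show high summits with a low one of 5.27 and 6.63 among them, chromosome 15 runs from 13.09 to 18.86, chromosome 13 from 4.42 to 7.14 and chromosome 11 from 6.54 to 7.99.

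Chromosome 4 showed another arrangement, with separate intervals and long gaps between some of them. Of its 25 summits, 24 lay between 145029702 and 146901382, in 4 clusters over 1871681 bp. The larger of these, from 146793525 to 146901382, had 13 summits in 11 intervals that covered only 5.60% of it, with folds of 3.14 to 6.12. Most of its intervals lay between 146793525 and 146811391, before a gap of 81541 bp that the joining rule bridged. Its median gap was 2001 bp, so the low cover rests largely on that rule. The other large one, from 145667325 to 145743540, had 9 summits in 7 intervals covering 3.27%, with folds of 3.23 to 4.33. Its largest gap was 36054 bp and its median gap 5982.5 bp. The remaining summit of chromosome 4, at 70039231, was the highest there, with a depth of 113 and a fold of 9.69.

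The 93 summits in clusters of fewer than 5 had a median fold of 4.59 and a range of 3.14 to 21.50. Of these, 53 (57.0%) had a fold under 5, 28 a fold between 5 and 10, and 12 a fold of at least 10. Their 83 intervals were narrow, with a median width of 372 bp, against 1033 bp in the chromosome 1 cluster. In this set 77 intervals held a single summit.

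The highest of the 93 summits lay on chromosome 9 at 35112945, with a depth of 252 and a fold of 21.50 (18.93 to 24.31) in an interval of 644 bp. Next among single-summit intervals in clusters of fewer than 5 summits was chromosome X at 109484551, with 14.36 (12.28 to 16.69). Chromosome 5 at 147072759 had 13.93 (11.89 to 16.23), and chromosome 2 had 13.51 in an interval from 181651972 to 181652759. The Poisson interval of the chromosome 9 summit lies above those of the other 3, which overlap each other.

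Below them, summits on chromosome 3 at 5860700 and chromosome 11 at 108873183 had the same depth of 144 and a fold of 12.32 (10.40 to 14.49). Chromosome 19 at 45724660 had 10.88, chromosome X at 73844358 had 10.79 and chromosome 2, in an interval from 168032398 to 168032932, had 10.20. The Poisson intervals of these 5 overlap. In all, 14 intervals on 9 chromosomes held a summit of at least 10, and 10 of the 14 lay in the smaller clusters.

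On the other 11 chromosomes no summit reached 10. The highest were 9.69 on chromosome 4, 9.60 on chromosome 6 at 103599172, 8.24 on chromosome 18 at 40467867 and 8.07 on chromosome 1. Chromosome 10 reached 7.31 at 21862626, chromosome 13 reached 7.14 at 120284030, and chromosome 8 reached 6.12 at 73397537. Chromosome 7 at 5003217 had 5.95, and chromosome 16 at 57391740, its only summit, had 4.84. Chromosome 14 also had 1 summit, at 105576424 with 4.42, and chromosome 12 the lowest maximum, 3.57 (2.58 to 4.81) at 20239445.

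Width and fold went together among isolated intervals. Over the 77 single-summit intervals of the smaller clusters, Spearman's rho between width and fold was 0.68, and Pearson's r between width and log2 fold was 0.77. These points share 1 library and 1 calling threshold, so the relation is a description only. The 9 intervals with a fold of at least 10 were 470 to 788 bp wide with a median of 601 bp. The 21 between 5 and 10 had a median of 438 bp, and the 47 under 5 a median of 303 bp with a range of 250 to 515 bp.

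Over all 114 single-summit intervals, the summit stood a median of 14.25 bp from the middle of its interval, and at most 158.5 bp. The 43 intervals with several summits were wider, with a median of 1622 bp and a range of 358 to 7391 bp. Of the intervals with several summits, those described on chromosomes 17, 2 and 15 reached a fold of 10, and the others did not.

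**Figure D5:**
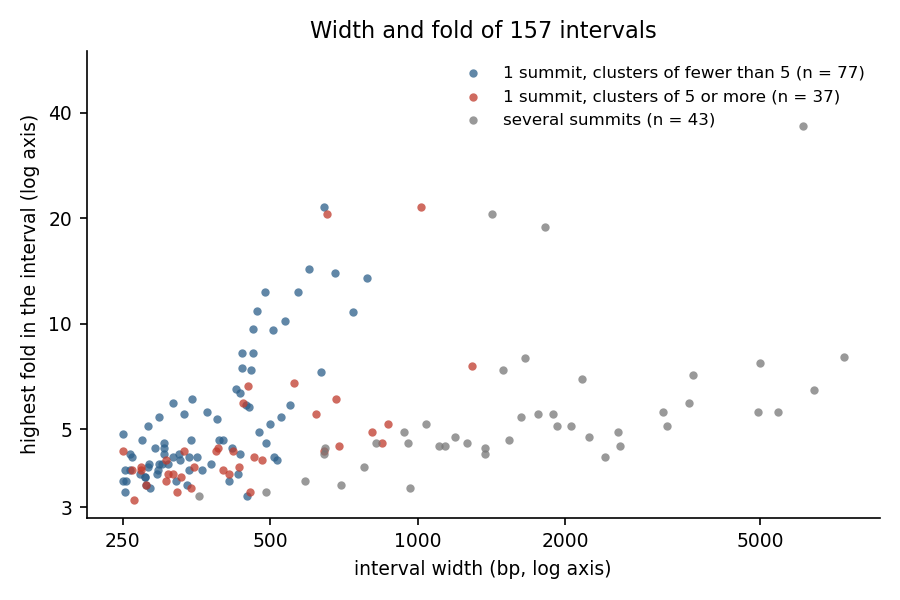
Highest authors' fold against width of the 157 intervals (both log axes). Blue and red points hold 1 summit, in clusters of fewer than 5 or of 5 or more summits, and grey points hold several. Isolated intervals rise from about the shortest width, 250 bp, to folds of 10 and more between 470 and 788 bp, while most wide grey intervals stay below 10.

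The limit at 4000000 fell in a gap of the list. The last interval below it, on chromosome 19 from 3767513 to 3768820, had 2 summits with folds of 9.35 and 10.96. The first beyond it was on chromosome 17 from 4908096 to 4908373, with a fold of 3.65, followed by chromosome 7 at 5003217 with 5.95.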

How the data were processed

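The authors' deposited peak list (narrowPeak layout, build mm9 per the submitters' processing notes) gives for each summit a fold (a ratio), a −log10 p and a −log10 q. It also has a deposited score, which equals 10 times the −log10 q cut to a whole number in all 467. Per the submitters' processing notes, BWA 0.7.13 and MACS2 2.10 were among the tools. The sources used here do not give the settings of the peak caller or the treatment of repeated reads. The RNA table was not used.

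Intervals were joined into clusters over gaps of at most 100000 bp, and clusters of 5 or more summits were called large. Depth was recovered with a pseudocount of 1 and a tolerance of 0.01 in −log10 p, tested on simulated summits first. Positions count from 1. Named regions are all intervals with a fold of at least 10, all large clusters, the highest summit of each chromosome and those nearest the limit of 4000000. The chromosome 11 interval and the first cluster of chromosome 1 were named after their values were seen. The members and lists were chosen with earlier results of these data known. Python 3.11.15, pandas 2.3.3 and SciPy 1.17.1 were used.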

Additional observations from a re-analysis of the deposited data

How the results depend on the processing

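No paired analysis was possible because there is 1 list and no test between groups. The number of clusters (82) was 87 with a gap of 10000 bp and 75 with 1000000 bp, and the share in the chromosome 1 cluster stayed at 53.0% under both. Neither setting could change that share. The cluster's largest inner gap was 2399 bp, and the nearest other summit lay more than 1000000 bp away. Counted by interval, the share in the chromosome 1 cluster was 30.6%, the 296 summits became 157 and the 23 with a fold of at least 10 became 14. With a −log10 q of at least 20, 103 summits remained, including all 23. Fold and −log10 q both rise with depth here, so this filter removes only low folds and could not remove the 23. For the same reason the median fold could not fall with a −log10 q of at least 10, where it was 4.67. It was also 4.67 without the chromosome 1 cluster. Without the 6 large clusters, an alternative chosen after seeing the data, 12 summits had a fold of at least 10. The median interval width of 451 bp was 400 bp without the chromosome 1 cluster and 1258 bp when each summit carried its interval's width. Moving the start limit to 3000000 gave 428 summits. The summits in small clusters numbered 77 to 115 under the 4 alternatives tried. With a pseudocount of 0 in the fold, only 9.46% of the 296 summits gave a whole depth, against 100% with 1. Depth limits the low end: a summit of 36 reads, the lowest in the list, has a fold of 3.14 with an interval of 2.23 to 4.32.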

Other observations

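The layout of the list gave some limits of the measurement. The shortest of its 216 intervals were 250 bp wide, a width shared by 5 of them, and the smallest gap between neighbouring intervals was 51 bp. The highest depths were bunched: 9 of the 13 mitochondrial summits had between 488 and 500 reads, and the next highest had 436. The highest of the 296 summits, on chromosome 17, followed with 431. The sources used here do not say whether reads at the same position were counted once, and whether depth was capped at the top was not tested.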
